A study of Mus musculus with 6 samples.

Results

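Inhibitors of cyclin-dependent kinases (CDKs) and response genes of the tumour suppressor p53 were described in whole fetal livers of mouse embryos without the retinoblastoma gene. The set was fixed by name, with earlier results of these data known. It held 10 genes: Cdkn1a, Cdkn1b, Cdkn2c, Cdkn2d, Trp53, Mdm2, Ccng1, Gadd45a, Plk2 and Perp. Every probe set that the array's platform annotates to exactly 1 of these symbols was taken, which gave 11 probe sets for 9 of the 8251 genes on the array. Trp53 had no such probe set. The livers came from 3 Rb null and 3 wild type embryos at embryonic day 12.5, all untreated and all from matings of Rb heterozygous 129sv mice. The null allele is inherited, so it is not limited to one cell type of the liver. One Affymetrix array was run per embryo (n = 3 embryos per genotype throughout), and that number limits the precision. The labels do not say which embryos were littermates.

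Proteins of the Cip/Kip family, p21 (Cdkn1a) and p27 (Cdkn1b), bind cyclin-CDK complexes and hold back entry into S phase, and proteins of the INK4 family, p18 (Cdkn2c) and p19 (Cdkn2d), bind CDK4 and CDK6 in place of their D cyclins. Active CDKs phosphorylate the retinoblastoma protein and release E2F transcription factors, so that the inhibitors normally act upstream of the protein missing here. The transcription factor p53 is held low by the ubiquitin ligase Mdm2 and, when stabilised by stress, raises transcripts such as Cdkn1a, Mdm2, Ccng1, Gadd45a, Plk2 and Perp. In red cell precursors, the main cells of the liver at this age, CDK inhibitors accompany the last divisions before the nucleus is lost.

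Of the 9 genes measured, Plk2 rose, Gadd45a fell and the other members that could be tested did not pass. A gene was called at an adjusted p below 0.05 in the moderated test of limma across all probe sets with a mean signal above 150.1, and 7 of the members had such a probe set. So 1 member rose and 1 fell among 7 tested, against 13.1% of all 5273 tested genes that rose and 9.50% that fell. The median log2 fold change (Rb null minus wild type, on log2 of signal plus 50.02) was -0.05 over the tested members and 0.02 over all tested genes. The groups did not overlap for 3 of the 7, with 1 member higher and 2 lower in Rb null livers, beside 41.2% of all tested genes (23.5% higher and 17.6% lower). Cdkn1a was read by 2 probe sets, one below the filter and higher in Rb null livers and one above it without a difference that passed.

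**Figure D1:**
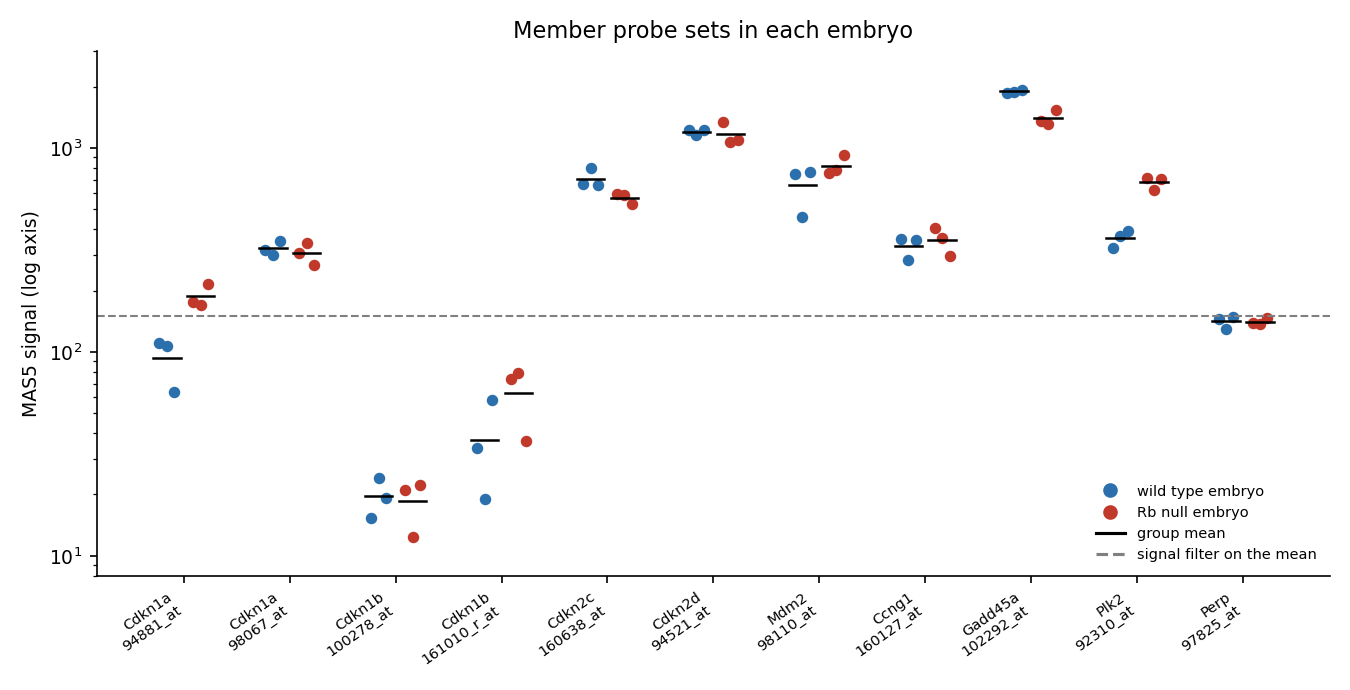
MAS5 signal (log axis) of the 11 member probe sets in each of 3 wild type (blue) and 3 Rb null (red) embryos, with group means as black bars and the signal filter of 150.1 as a dashed line. Rb null embryos lie above all wild type embryos for Plk2 and for Cdkn1a probe set 94881_at, and below them for Gadd45a and Cdkn2c; the Cdkn1b and Perp probe sets, and 94881_at, have overall means under the filter.

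The genotype check stands first. Rb1 read 138.8, 141.6 and 127.4 in Rb null embryos 1 to 3 and 790.6, 753.6 and 706.2 in wild type embryos 1 to 3 (limma adjusted p = 7.8e-06). The Rb null signals lay under the filter, so background cannot be told from transcript there and no fold is given. The other Rb1 probe set, 161858_f_at, read 73.4, 105.3 and 88.7 in Rb null and 394.2, 385.4 and 433.3 in wild type embryos (limma adjusted p = 1.5e-04). Both probe sets separated the embryos as labelled. The labels do not say which part of Rb1 was deleted, and whether the probe sets lie within that part was not tested. Liver was recognisable in both genotypes by albumin (Alb, 13754 ± 258 SD in Rb null and 15834 ± 825 in wild type) and by the erythroid factor Klf1 (4418 ± 226 and 6702 ± 282). Median signals were 199 ± 2.97 for Rb null and 181 ± 5.22 for wild type arrays (two-sided exact permutation p = 0.1, with no lower value possible for 3 against 3), although the trimmed means were equal at about 500.2.

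Cdkn1a encodes p21, an inhibitor whose gene is a classic direct target of p53. RefSeq gives windows upstream of 2 Cdkn1a starts in mouse build GRCm38.p6, and the 250 bases before the first start, shown because they hold a p53 response element, lie at chr17:29090729-29090978 on the plus strand. Such an element is a pair of adjoining half-sites to which p53 binds as a tetramer. The window of Ccng1, at chr11:40755287-40755536 on the minus strand, is shown beside it because it was the only other one of 11 member windows with an element. Both are printed in the direction of transcription, with half-sites and elements in capitals.

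Cdkn1a: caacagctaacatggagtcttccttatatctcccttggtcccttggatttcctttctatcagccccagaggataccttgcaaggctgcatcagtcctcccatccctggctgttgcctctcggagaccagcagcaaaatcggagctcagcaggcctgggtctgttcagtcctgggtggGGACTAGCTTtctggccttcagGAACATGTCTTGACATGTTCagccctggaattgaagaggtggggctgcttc

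Ccng1: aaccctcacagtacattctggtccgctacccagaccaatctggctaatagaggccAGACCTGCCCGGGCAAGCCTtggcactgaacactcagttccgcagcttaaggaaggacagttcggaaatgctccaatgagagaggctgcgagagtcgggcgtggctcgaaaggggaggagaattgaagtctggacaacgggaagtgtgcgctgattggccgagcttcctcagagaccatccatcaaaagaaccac

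The element was searched as a pair of 10-base half-sites with no gap and at most 1 of its 20 bases off the pattern, which reads the same on both strands. In Cdkn1a it was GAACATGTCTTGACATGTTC, from 51 to 32 bases before the start, and in Ccng1 it was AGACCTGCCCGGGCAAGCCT, from 195 to 176 bases before the start. Of 32851 RefSeq windows of the same length, 0.0761% held one. A single half-site without a mismatch, which the elements also contain, stood in 6 of the 11 member windows and in 7.13% of all windows. The E2F forms TTTCCCGC, TTTGGCGC, TTTCGCGC and TTTGCCGC, searched on both strands, were in 0 of the 11 windows and in 1.86% of all. The search was set after the windows had been read, and a match describes letters, not binding.

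The Cdkn1a probe set 98067_at, the brighter one, read 304.9, 341.1 and 266.5 in Rb null and 316.5, 300.1 and 350.0 in wild type embryos. These groups overlapped, with the lowest of the 6 embryos Rb null and the highest wild type. The log2 fold change was -0.07 ± 0.11 with a 95% interval from -0.32 to 0.17 (limma adjusted p = 0.67), or -0.17 after quantile normalization and -0.20 after median scaling, neither past the threshold. The Cdkn1a probe set 94881_at read 176.5, 169.6 and 215.2 in Rb null and 110.3, 106.6 and 63.6 in wild type embryos. On this probe set every Rb null embryo was above every wild type embryo, with a Rb null mean 2.00 times the wild type mean. Its overall mean of 140 lay under the signal filter, and the wild type level of 93.5 ± 26.0 was not shown to be above background. With no filter its log2 fold change was 0.74 (limma adjusted p = 0.043), and the mean of both probe sets gave 0.33 (limma adjusted p = 0.033). Which Cdkn1a transcripts each probe set binds was not tested.

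**Figure D2:**
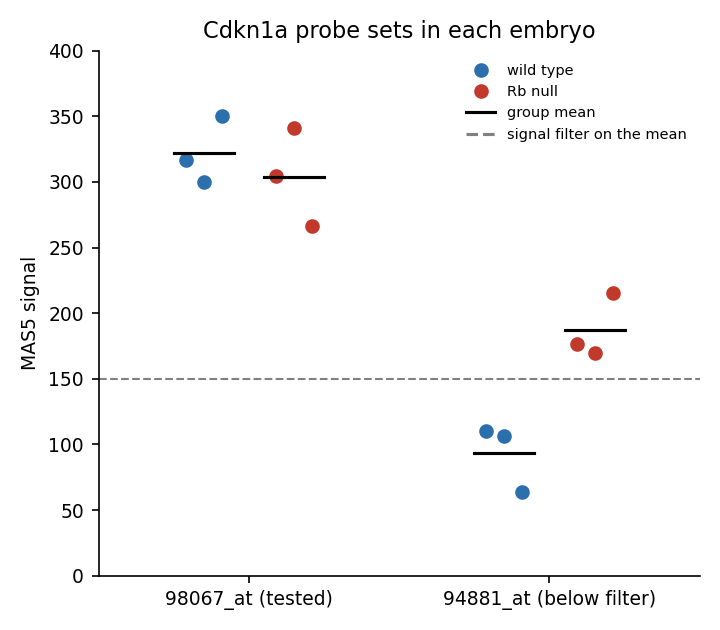
MAS5 signal (linear axis) of the 2 Cdkn1a probe sets in each wild type (blue) and Rb null (red) embryo, with group means as bars and the filter of 150.1 as a dashed line. On 98067_at the genotypes overlap around 304 and 322, whereas on 94881_at the means are 187 and 93.5 and the genotypes are apart.

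Cdkn1b, whose product p27 restrains CDK2 as cells leave the cycle, could not be tested. Its probe set 100278_at read 21.1, 12.3 and 22.2 in Rb null and 15.4, 24.0 and 19.3 in wild type embryos. Its other probe set, 161010_r_at, read 73.3, 78.6 and 36.5 against 33.9, 19.1 and 58.3. The genotypes overlapped on both, all signals were below the filter, and no statement on p27 transcript follows from them.

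The INK4 genes gave a lower reading for Cdkn2c and none that stood apart for Cdkn2d. Cdkn2c, which encodes p18, read 594.3, 585.9 and 529.9 in Rb null and 662.6, 795.8 and 660.3 in wild type embryos. No Rb null embryo reached the wild type range, whose highest value was that of embryo 2. The log2 fold change of Cdkn2c was -0.28 ± 0.09 (95% interval -0.49 to -0.07), which just missed the threshold (limma adjusted p = 0.059). Cdkn2c passed after quantile normalization (-0.34, limma adjusted p = 0.035), cyclic loess (-0.34, 0.038) or median scaling of the arrays (-0.41, 0.0089), and with the stricter signal filter (limma adjusted p = 0.04996). Cdkn2c did not pass on leaving out any single embryo (limma adjusted p from 0.079 to 0.14), nor with no filter (limma adjusted p = 0.097). Its smallest change was -0.20, without wild type embryo 2 (limma adjusted p = 0.14). Cdkn2d, which encodes p19, read 1342.0, 1072.3 and 1097.1 in Rb null and 1226.9, 1162.1 and 1224.8 in wild type embryos. Rb null embryo 1 was the highest of the 6 and the other two Rb null embryos were the lowest. The Cdkn2d change was -0.05 ± 0.09, with an interval from -0.25 to 0.16 (limma adjusted p = 0.75); it was -0.18 after median scaling and -0.14 without Rb null embryo 1, neither past the threshold.

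Mdm2 encodes the ubiquitin ligase that removes p53 and is itself raised by p53. It read 754.6, 783.8 and 923.9 in Rb null and 744.6, 458.4 and 766.9 in wild type embryos. The genotypes overlapped, and the wild type spread came from embryo 2, which was far below the rest. The Mdm2 change of 0.33 ± 0.18 did not pass, with an interval from -0.07 to 0.73 (limma adjusted p = 0.22). Without wild type embryo 2 it was 0.11 (limma adjusted p = 0.48), and after median scaling 0.20 (limma adjusted p = 0.46).

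For p53 itself no probe set was annotated to Trp53 alone. The 2 probe sets that the platform assigns to Trp53-ps are not members, and whether Trp53 transcripts bind them was not tested. The one with the higher signal, 101618_r_at, read 317 ± 102 (Rb null) and 321 ± 47.7 (wild type) (log2 fold change -0.04 ± 0.19, limma adjusted p = 0.90). The other, 101617_s_at, read 167 ± 6.25 and 158 ± 12.7 (0.07 ± 0.11, limma adjusted p = 0.71).

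Among the p53 response genes, Ccng1, an atypical cyclin that feeds back on Mdm2, showed no difference that passed. Ccng1 read 404.2, 360.7 and 296.6 in Rb null and 358.3, 283.7 and 355.5 in wild type embryos, so that the lowest and the highest embryo fell in different genotypes with the others between them. The change was 0.08 ± 0.13, with an interval from -0.22 to 0.37 (limma adjusted p = 0.72), and its sign turned after quantile normalization (-0.02), cyclic loess (-0.02) and median scaling (-0.05), and without Rb null embryo 1 (-0.01) or wild type embryo 2 (-0.02). Perp, a membrane protein of cell adhesion and p53-dependent death, read 138.7, 137.1 and 146.0 against 144.6, 129.5 and 149.1. Perp was under the filter and its genotypes overlapped.

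Gadd45a, a stress sensor that is induced by DNA damage through p53 and by other routes, was the member that fell. It read 1352.9, 1304.4 and 1545.0 in Rb null and 1869.3, 1881.6 and 1935.5 in wild type embryos. Wild type embryos lay close together, and each Rb null embryo was lower than any of them. The log2 fold change was -0.43 ± 0.07 (95% interval -0.59 to -0.26, limma adjusted p = 0.0050), a 1.34-fold lower level. Over 18 alternative settings the Gadd45a change ran from -0.56 to -0.38 and its limma adjusted p from 0.0022 to 0.025.

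Plk2, a polo-like kinase of G1 that p53 can induce, was the member that rose. It read 715.1, 625.6 and 708.2 in Rb null and 323.5, 369.5 and 390.7 in wild type embryos. The lowest Rb null embryo was well above the highest wild type embryo. The log2 fold change was 0.83 ± 0.09 (95% interval 0.62 to 1.05, limma adjusted p = 8.7e-04), a 1.78-fold rise. It was larger than the median absolute change of 0.38 among all called genes. Over the same 18 alternatives the Plk2 change ran from 0.70 to 0.90 and its limma adjusted p from 6.9e-04 to 0.0071.

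**Figure D3:**
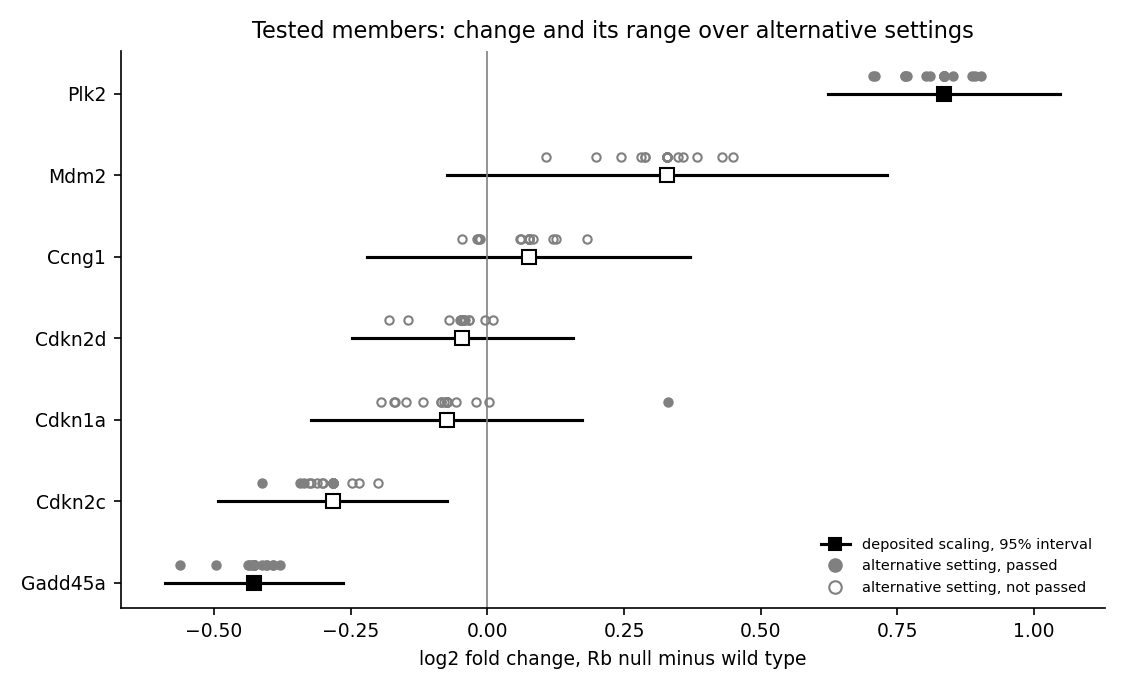
Log2 fold change (Rb null minus wild type) of the 7 tested members, with squares and 95% intervals for the deposited scaling (filled where the test was passed) and grey circles for alternative settings (filled where passed). Plk2 and Gadd45a stay on their side in every setting tried, Cdkn2c passes in some, and the filled circle of Cdkn1a at 0.33 is the mean of its 2 probe sets.

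The 250 bases before the starts of the 2 called genes are shown to compare them with the windows above. The Gadd45a window lies at chr6:67037408-67037657 on the minus strand and the Plk2 window at chr13:110394794-110395043 on the plus strand, in GRCm38.p6 from RefSeq. Capitals again mark a p53 half-site.

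Gadd45a: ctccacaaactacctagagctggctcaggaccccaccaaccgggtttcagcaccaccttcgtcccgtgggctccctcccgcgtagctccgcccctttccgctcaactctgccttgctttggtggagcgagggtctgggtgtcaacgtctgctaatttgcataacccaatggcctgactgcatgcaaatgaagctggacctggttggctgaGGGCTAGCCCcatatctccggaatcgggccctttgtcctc

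Plk2: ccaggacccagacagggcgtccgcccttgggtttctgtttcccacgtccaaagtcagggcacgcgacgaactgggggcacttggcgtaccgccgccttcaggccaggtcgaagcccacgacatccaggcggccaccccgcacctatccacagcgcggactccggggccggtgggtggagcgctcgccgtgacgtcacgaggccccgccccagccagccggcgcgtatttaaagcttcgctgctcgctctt

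The Gadd45a window held 1 half-site, which began 40 bases before the start, and the Plk2 window held none. No element and no E2F form was in either window. So neither called gene carried the element in these bases, while the window of the first Cdkn1a start and that of Ccng1 did. The window of the other Cdkn1a start held no element and no half-site. Elements outside the windows were not searched.

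Rb null embryos with the changed members also differed in cell type markers. Of 11 erythroid markers tested 9 fell and 0 rose, and their summed signal was 36019 to 38210 in Rb null and 52056 to 55796 in wild type embryos. Of 8 mesenchyme markers 5 rose and 0 fell (13150.5 to 14691 against 10390.3 to 10827), of 8 endothelial markers 3 rose (4890.1 to 5363 against 4066 to 4281), of 8 granulocyte markers 5 rose (11794 to 11903 against 9079 to 9190.3) and of 8 macrophage markers 3 rose (4695 to 5147 against 3999 to 4181). Of 3 megakaryocyte markers tested 2 rose, and the 5 on the array summed to 2255 to 2629 against 1417.5 to 1526. Hepatoblast markers moved both ways, 1 up and 2 down of 10, with overlapping sums of 38738.5 to 41273 and 41093 to 44527. No marker was at 0 on any array. Over all tested genes 13.1% rose and 9.50% fell. The marker counts and sums were not repeated under other scalings, and median scaling lowered the median change of all genes by 0.13. The part of the marker shifts in the rise of Plk2 and the fall of Gadd45a was not tested. In whole liver fewer cells of a type and less RNA per cell cannot be told apart.

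**Figure D4:**
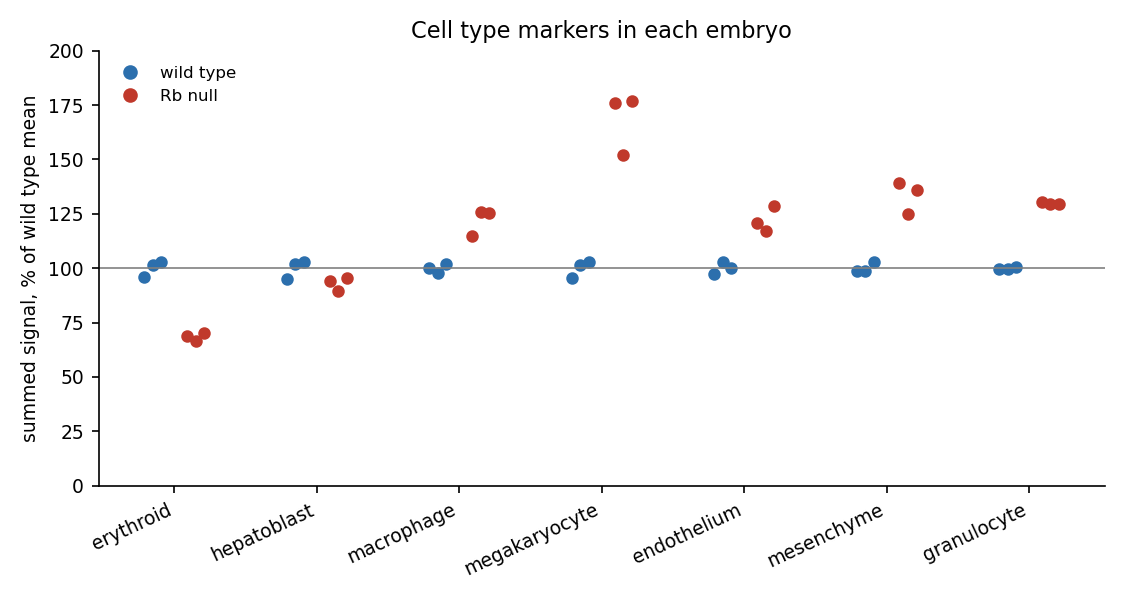
Summed MAS5 signal of each cell type marker list per embryo, as a percentage of the wild type mean of that list (wild type blue, Rb null red). Erythroid sums are 66.3% to 70.3% in the Rb null embryos, and those of mesenchyme, endothelium, granulocytes, macrophages and megakaryocytes lie above all wild type embryos.

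Genes around the members were followed in 6 lists of inhibitors, p53 targets, p53 regulators, turnover factors and CDK partners, of which 52 genes were tested. Like the members, the lists were chosen with earlier results of these data known. Of the 52 genes 8 rose, 9 fell and 35 did not pass, beside 22.6% of all tested genes called in either direction. These counts leaned on the scaling: 3 rose and 19 fell after median scaling, which lowered the median change of all genes by 0.13. Quantile normalization gave 5 and 8. Leaving out Rb null embryo 2 gave 5 and 3, Rb null embryo 1 gave 5 and 5, wild type embryo 2 gave 7 and 5, and wild type embryo 3 gave 5 and 6; without Rb null embryo 3 or wild type embryo 1, 5 rose and 10 or 7 fell.

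Among other inhibitors, Cdkn3 fell from 661 ± 109 to 385 ± 44.1 (log2 fold change -0.70 ± 0.13, limma adjusted p = 0.0073). Cdkn3 is a phosphatase that acts on CDK2 and is high in dividing cells, and not a Cip/Kip or INK4 protein. Cdkn1c, the imprinted Cip/Kip member p57, rose from 4329 ± 128 to 5160.3 ± 235 (0.25 ± 0.05, limma adjusted p = 0.015). The Cdkn1c call was lost after median scaling (0.11, limma adjusted p = 0.27), whereas quantile normalization gave 0.39 (limma adjusted p = 0.0015). Of the 5 genes listed, 2 were under the filter and 1 tested gene did not pass.

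Of 11 tested genes listed as p53 targets of arrest and repair, 1 rose, 0 fell and 10 did not pass, with a median of -0.08. The shares over all tested genes were 13.1% higher and 9.50% lower. The gene that rose was Ccng2, an atypical cyclin related to Ccng1. It went from 432 ± 16.3 to 921 ± 97.4 (1.01 ± 0.09, limma adjusted p = 3.1e-04), while Ccng1 itself did not pass. Whether p53 acts on Ccng2 was not tested. Zmat3, an RNA-binding p53 target, read 296 ± 49.8 against 219 ± 38.1 (0.36 ± 0.14, limma adjusted p = 0.11) and passed with the replicate number as a block (limma adjusted p = 0.048). The other 9 tested genes of this list did not pass.

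Of 17 genes listed as p53 targets of cell death 7 were tested, and Bax, Bbc3, Pmaip1, Fas and Tnfrsf10b were not among them. Of the 7, 4 rose and 0 fell, with a median of 0.37. Over all tested genes 13.1% rose and 9.50% fell. In this list 2 rose after median scaling, and 2 with the stricter filter, which tested fewer genes. Phlda1, a pleckstrin homology protein linked to cell death, rose from 161 ± 15.4 to 373 ± 31.4 (1.00 ± 0.11, limma adjusted p = 6.4e-04). Apaf1, the scaffold of the apoptosome, rose from 442 ± 37.9 to 611 ± 5.46 (0.43 ± 0.08, limma adjusted p = 0.0082). Pmp22, a relative of Perp in membrane structure, rose by 0.41 ± 0.08 (limma adjusted p = 0.013) and Casp6, an effector caspase, by 0.37 ± 0.10 (limma adjusted p = 0.031). The Casp6 call was lost under 10 of 17 alternatives, among them leaving out any embryo but wild type embryo 2 (limma adjusted p from 0.073 to 0.092). That of Pmp22 was lost under 2, median scaling (limma adjusted p = 0.052) and the mean of its probe sets (0.19, limma adjusted p = 0.15).

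Of 10 tested regulators of p53, 1 rose and 4 fell (13.1% and 9.50% over all tested genes), with a median of -0.07. Only the 4 called regulators with the largest changes are described. Usp7, a deubiquitinase of Mdm2 and p53, fell from 2329.5 ± 42.2 to 1781 ± 120 (-0.38 ± 0.06, limma adjusted p = 0.0047), or -0.19 for the average of all Usp7 probe sets (limma adjusted p = 0.062). Cop1, a ubiquitin ligase, fell by 0.36 ± 0.10 (limma adjusted p = 0.041), but the average over its probe sets was -0.09 (limma adjusted p = 0.76). Hipk2, a kinase of p53, fell by 0.31 ± 0.08 (limma adjusted p = 0.024). Atm, the kinase that signals double-strand breaks to p53, rose by 0.40 ± 0.12 (limma adjusted p = 0.043), a call lost under 10 of 17 alternatives, among them leaving out any embryo but wild type embryo 2 (limma adjusted p from 0.072 to 0.13). The Cop1 call was lost without Rb null embryos 1 or 2 or wild type embryos 1 or 3 (limma adjusted p from 0.086 to 0.13), and the Hipk2 call without Rb null embryos 1 or 2 or wild type embryos 1 or 2 (0.058 to 0.0796).

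Of 12 tested turnover factors of the inhibitors 1 rose and 2 fell (13.1% and 9.50% over all tested genes), with a median of -0.08. Cdc34, the ubiquitin-conjugating enzyme that works with the SCF ligase on p27, fell from 2126 ± 45.8 to 1419 ± 56.9 (-0.57 ± 0.05, limma adjusted p = 4.7e-04), or by 0.35 for the average of its probe sets (limma adjusted p = 0.034). Ddb1, the adaptor of the ligase that removes p21, fell by 0.23 ± 0.06 (limma adjusted p = 0.039), or by 0.05 after quantile normalization (limma adjusted p = 0.47), 0.13 for the average of its probe sets (limma adjusted p = 0.22) and 0.36 after median scaling (limma adjusted p = 0.0063). It no longer passed without Rb null embryos 1 or 2 or wild type embryos 2 or 3 (limma adjusted p from 0.10 to 0.11). Fbxw11, an F-box protein, rose by 0.25 ± 0.07 (limma adjusted p = 0.041), a call lost under 11 of 18 alternatives, among them each of the 6 that left out an embryo, while the average of its probe sets gave 0.44 (limma adjusted p = 0.0034).

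Of 9 tested CDKs and cyclins that the inhibitors bind or that start them, 0 rose and 2 fell. The shares over all tested genes were 13.1% and 9.50%, and the median of the 9 was -0.24. Ccna2, the cyclin of S phase, fell from 3739 ± 371 to 2694 ± 319 (-0.47 ± 0.10, limma adjusted p = 0.013), a call lost without Rb null embryo 2 (limma adjusted p = 0.051). Cdk4, the kinase that INK4 proteins bind, fell by 0.24 ± 0.06 (limma adjusted p = 0.022), but averaging its probe sets gave -0.01 (limma adjusted p = 0.96) and the call was also lost after quantile normalization (-0.13, limma adjusted p = 0.080) and without Rb null embryos 1 or 2 or wild type embryos 2 or 3 (limma adjusted p from 0.067 to 0.078). Median scaling gave -0.38 for Cdk4 (limma adjusted p = 0.0052).

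**Figure D5:**
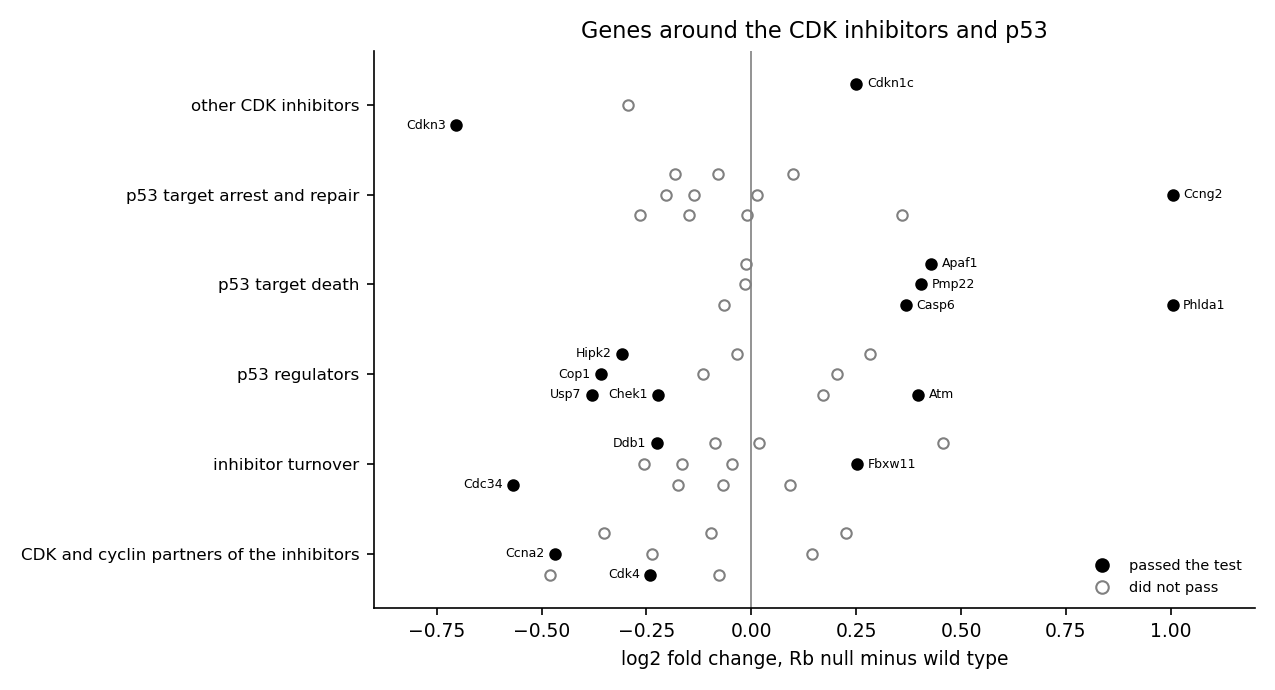
Log2 fold change (Rb null minus wild type) of the 52 tested genes in the 6 lists, one row per list, filled and named where the test was passed. Cdkn3 lies farthest left at -0.70, Ccng2 and Phlda1 farthest right at 1.01 and 1.00, and 35 genes are open circles.

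The genes with profiles closest to the called members were found by the root mean square distance of log2 values over the 6 arrays, each taken from its wild type mean. This measure picks genes whose change is close in size to that of the member, so their changes below follow from the choice. Closest to Plk2 were Ncam1 (distance 0.067), Atf3 (0.070) and Pkm (0.076). Ncam1, an adhesion molecule, rose from 281 ± 9.04 to 530.4 ± 15.1 (0.81 ± 0.08), although the mean of its probe sets gave 0.26 (limma adjusted p = 0.10). Atf3, a stress-induced transcription factor, rose from 166 ± 8.34 to 335 ± 20.5 (0.83 ± 0.10), or by 0.42 for the average of its probe sets (limma adjusted p = 0.0084). Pkm, the pyruvate kinase of glycolysis, rose from 3527 ± 158 to 6054.5 ± 357 (0.77 ± 0.06). Closest to Gadd45a were Pigq (0.034), Rbm38 (0.036) and Alad (0.041). Rbm38, an RNA-binding protein known both as a p53 target and from erythroid cells, fell from 5286 ± 222 to 3973 ± 253 (-0.41 ± 0.06), and Alad, an enzyme of haem synthesis, fell from 9561.5 ± 374 to 7170 ± 312 (-0.41 ± 0.06), or by 0.22 after cyclic loess (limma adjusted p = 0.0045) and 0.25 after quantile normalization (limma adjusted p = 0.0021). Pigq, an enzyme of membrane anchor synthesis, fell by 0.40 ± 0.07, or by 0.05 with the mean of its probe sets (limma adjusted p = 0.78).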

How the data were processed

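Total RNA (6 ug per liver, Trizol) was labelled with biotin and hybridised to 1 Affymetrix array per embryo. The intensity values deposited by the authors are linear MAS5 signals, per the submitters' processing notes; the MAS5 version and scaling target are not given in the sources used here. The 2% trimmed means of the 6 arrays were equal at about 500.2. Replicates are separate embryos by their titles.

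Of the probe sets 10833 had a single gene symbol, 396 several and 1193 none, and 66 were controls, which were left out. Signals plus an offset of 50.02 were put on the log2 scale. The 6793 probe sets averaging over 150.1 were tested in R 4.3.3 with limma 3.58.1 (two-sided, moderated by an intensity trend, Benjamini-Hochberg over all of them, threshold 0.05). The filter used the mean over all arrays, so a gene raised in 1 genotype passes more easily. A gene was counted by its brightest probe set. The procedure was tested on simulated data. The simulated arrays held no difference in scaling between genotypes, so the dependence of the counts on scaling was not tested there.

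The members and lists were chosen with earlier results of these data known. Named genes are all members, up to 4 genes past the threshold per list with the largest change (or the 2 with the smallest p where fewer than 2 passed), the 3 closest profiles per called member, and the mutated gene. Platform symbols were updated through RefSeq gene identifiers, and promoter windows came from RefSeq (GRCm38.p6), where 9 of the 10 members had one. Perp was not among them. Alternatives were the normalization, offset, filter, variance model, replicate block, treatment of probe sets and leaving out each embryo. Averages over the probe sets of a gene took all of them, those under the filter included. The number of arrays limits the precision.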

Additional observations from a re-analysis of the deposited data

How the results depend on the processing

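Plk2 and Gadd45a kept their direction and their call under all 18 alternatives. The changed filters, variance models, replicate block and treatment of probe sets could not move their log2 fold changes, which stayed at 0.83 and -0.43. Only the adjusted p could change there. Among members, 1 higher gene became 2 when probe sets of a gene were averaged (Cdkn1a joined), and 1 lower gene became 2 after quantile normalization, cyclic loess, median scaling or the stricter filter (Cdkn2c joined). When 1 embryo was dropped, signs turned for Cdkn1a 98067_at (-0.15 to 0.0036), Cdkn2d (-0.14 to 0.011) and Ccng1 (-0.020 to 0.18). Ccng1 also turned with quantile normalization (-0.016), cyclic loess (-0.017) and median scaling (-0.046). The cause of these turns was not tested. The averaged Cdkn1a value of 0.33 combines 98067_at (-0.07) with 94881_at (0.74), which lay under the filter. So the sign of 98067_at itself did not turn there. In the 6 lists, 8 higher genes became 5 after quantile normalization, cyclic loess, no filter or the stricter filter and 3 after median scaling, and 9 lower genes became 19 after median scaling. Over all genes, 690 higher and 501 lower became 363 and 1099 after median scaling (24.8% of calls higher against 57.9%), and 428 higher and 533 lower with the stricter filter (44.5% higher). Leaving out single embryos gave 5 to 7 higher and 3 to 10 lower genes in the lists, and 406 to 553 higher and 257 to 428 lower over all genes. The members kept 1 higher and 1 lower gene in each of these fits.

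Deviations of same-numbered embryos from their group means had correlations of -0.06, 0.05 and 0.27, beside -0.25 to 0.22 for differently numbered embryos. With 3 embryos per genotype these values cannot decide whether the replicate numbers pair the embryos. With the replicate block 639 genes were higher and 488 lower over all genes, and the members again gave 1 and 1. Signals under the filter (Cdkn1b, Perp, Cdkn1a 94881_at) limit what can be said of those probe sets. With no filter the log2 fold changes were -0.02 and 0.38 for the Cdkn1b probe sets and -0.0024 for Perp, with limma adjusted p from 0.35 to 0.995. For Cdkn1a 94881_at it was 0.74 (limma adjusted p = 0.043).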
